A study of Glycine max with 12 samples.

Results

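Root tips of soybean seedlings that received propiconazole (PPZ), an inhibitor of brassinosteroid synthesis, and then brassinolide (BL), an active brassinosteroid, were set against root tips of mock seedlings. The 3 PPZ plus BL libraries and the 3 mock libraries were taken by their labels, 6 of the 12 RNA-seq libraries in the series. The other 6 are 3 of BL alone and 3 of PPZ alone. All came from the apical 1 cm of the roots of seedlings germinated for 3 days and grown in hydroponic medium for 7.5 days, 10.5 days in all. PPZ plus BL seedlings spent 2 days in 0.1 μM PPZ, then 0.5 days in 0.01 nM BL. BL seedlings had 0.01 nM BL for 0.5 days, and PPZ seedlings had 0.1 μM PPZ for 2.5 days. Mock seedlings had neither agent, and the labels do not say which of these schedules they were matched to. The label of the combined group reads as if BL had come first, while the series design puts PPZ first, and the design text also speaks of eBL. The labels give the cultivar as Wm82 and the methods name another one, so the cultivar was taken as not settled. Nothing in the labels says how many seedlings made up a library.

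Brassinosteroids are plant steroid hormones that are perceived at the cell surface by the receptor kinase BRI1. The signal shuts off the kinase BIN2 and lets transcription factors of the BES1/BZR1 family act on genes of cell elongation, the cell wall and cell division. In roots, both too little and too much of the hormone restrict growth in Arabidopsis, and expansins and xyloglucan endotransglucosylases, which loosen the wall, are among the best known targets there.

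Total counts lay between 19073510 and 23295279 in PPZ plus BL and between 18450894 and 24815541 in mock. Mock 1 stood apart from the other mock libraries. On a log2(CPM + 1) scale over 33051 annotated genes, where CPM are read counts after TMM scaling to a common library total, its median distance to the PPZ plus BL libraries was 135, against 171 for mock 2 and 178 for mock 3. Counts were therefore also made without it. PPZ plus BL libraries lay at a median distance of 75.6 from BL libraries, 147 from PPZ libraries and 171 from mock libraries, and 66.1 from each other. For the markers of other organs, chlorophyll binding and Rubisco small subunit genes summed to between 605 and 839 CPM in PPZ plus BL and between 501 and 682 CPM in mock. Of 30 tested, 29 had a positive fold change, with a median of 1.15 on the log2 scale, beside 0.01 for all genes. The exception was the most abundant member in mock, the Rubisco small subunit gene Glyma.13G097100. It had 111, 111 and 125 CPM in PPZ plus BL, against 313, 299 and 358 CPM in mock (log2 fold change -1.49 ± 0.15 SE). By the limits given below, 5 of the 30 were higher and 0 lower in PPZ plus BL, 16.7% beside 6.84% of all genes. Of all 45 members, 2 had no count in these 6 libraries. The globins, chosen as the nodule marker, summed to between 844 and 1179 CPM in PPZ plus BL and between 1476 and 1903 CPM in mock. Nearly all of it came from a single gene, Glyma.11G121800, which carries no RefSeq symbol. Of the 7 members, 4 had no count in these 6 libraries, LB1, LB2 and LB3 among them. LB4 had 3 counts in PPZ plus BL and 1 in mock, so the sum is not a level of the LB genes. The part of the markers of other organs in the results was not tested. The markers of dividing cells were present, with a kinesin sum between 1883 and 2169 CPM in PPZ plus BL and between 1211 and 1692 CPM in mock.

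**Figure D1:**
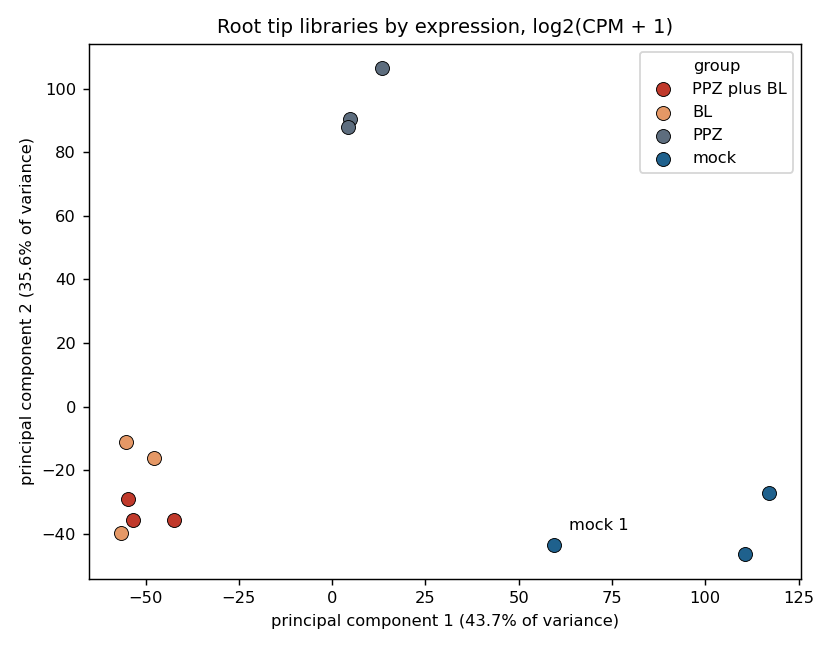
Each point is 1 of the 12 root tip libraries, placed by its first and second principal component of log2(CPM + 1) values and coloured by group. The PPZ plus BL libraries lie between -54.7 and -42.5 on the first component, beside the BL libraries, while mock 1 lies at 59.6 and the other mock libraries at 110.6 and 117.1.

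A large set of genes differed between PPZ plus BL and mock. Of 35508 annotated genes tested, 1364 were higher in PPZ plus BL (3.84%) and 1064 were lower (3.00%), or 6.84% in either direction, by edgeR with an adjusted p up to 0.01 and a change of 3-fold or more. The median size of the change among these genes was 2.43 on the log2 scale, and over all genes tested the median log2 fold change was 0.01. The count depended on the libraries. It was 4304 without mock 1, 915 without mock 2, 1496 without mock 3, 1378 without PPZ plus BL 1, 649 without PPZ plus BL 2 and 994 without PPZ plus BL 3. Higher genes were the larger group only in some of these fits, with 2714 higher and 1590 lower genes without mock 1 but 393 higher and 522 lower genes without mock 2. Without PPZ plus BL 2, 313 of 36138 genes tested were higher and 336 lower. The same counts were 693 and 685 without PPZ plus BL 1, and 515 and 479 without PPZ plus BL 3. A list's count in such a fit stands beside the totals of that fit, not beside 6.84%. Below, a gene called in all 6 of these fits is said to have kept its call. In bulk root tips, fewer cells of a type and less RNA per cell cannot be told apart.

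**Figure D2:**
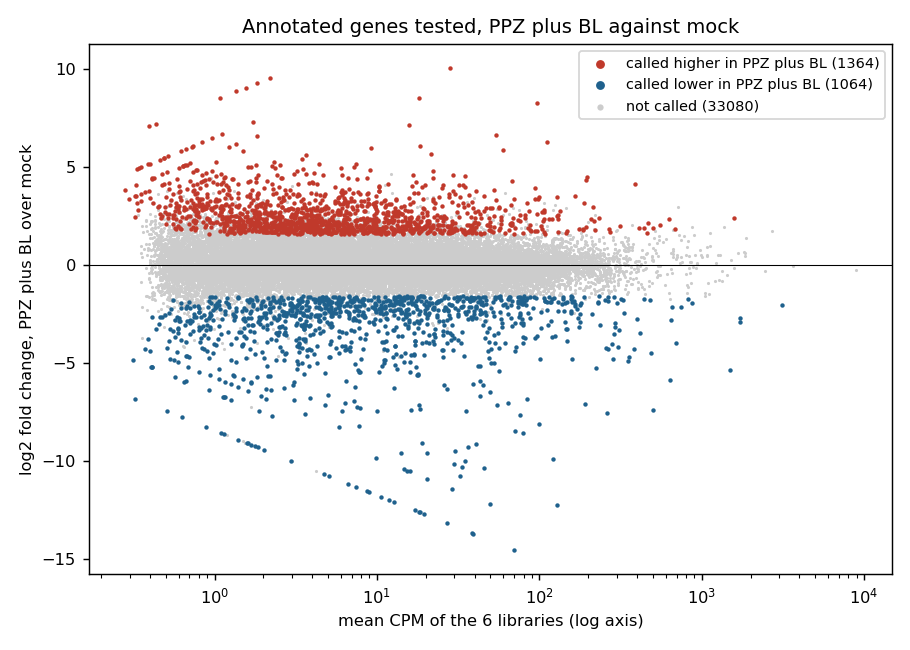
Each point is an annotated gene tested, with its mean CPM over the 6 libraries on a log axis and its log2 fold change, PPZ plus BL over mock. The 1364 higher and 1064 lower genes are spread over the whole range of levels, and the straight lines of points at the outer edges are genes with no count in one group, whose fitted fold depends on the prior count of the fit.

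The genes with the largest increases were nearly silent in mock. Glyma.06G070900, a DUF642 gene of a plant cell wall family, lies on chromosome 6 at 5395193 to 5397844. It had 51.1, 61.3 and 56.4 CPM in PPZ plus BL, against 0.10, 0 and 0.04 CPM in mock. The ratio of its levels was 1201, with a 95% counting interval of 411 to 5827 (log2 fold change 10.05 ± 0.34 SE, edgeR adjusted p = 4.23e-05), and it kept its call. The other 5 named increases had no count in any mock library. Glyma.14G165000, an oxidoreductase, has molybdopterin-binding, Mo-co dimerisation, cytochrome b5-like, FAD-binding and NAD-binding domains. It had 3.15, 4.92 and 5.09 CPM in PPZ plus BL, which makes it at least 30.6-fold higher than a floor of 3 counts per mock library allows. Glyma.19G002400, a C26 peptidase, was at least 21.6-fold higher, and Glyma.18G278600, which has no Pfam entry, at least 15.1-fold higher. Glyma.14G165000 and Glyma.19G002400 kept their calls, and Glyma.18G278600 lost its call without PPZ plus BL 2. Glyma.03G041300, a wound-induced WI12 protein, was at least 25.5-fold higher, or 16.5-fold without PPZ plus BL 1, and was called in 2 of the 6 fits. The cytochrome P450 gene CYP76O2 (Glyma.10G200800) was at least 18.9-fold higher, and also was called in 2 of the 6 fits.

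The genes with the largest decreases had no count in any PPZ plus BL library, and 4 of the 6 lie in tandem groups on chromosomes 18 and 9. On chromosome 18 between 2496245 and 2539426, 9 neighbouring genes encode lipid transfer proteins, small secreted proteins that bind lipids. The group was picked out because members of it were among the largest decreases, and 8 of the 9 passed the filter on low counts. Of these, all but Glyma.18G033200 had at most 0.20 CPM in any PPZ plus BL library and passed through mock, so that their direction was fixed by the choice and no count of lower members is given. Their summed level was 2.64, 2.83 and 3.49 CPM in PPZ plus BL, 2.95, 2.99 and 3.88 CPM in BL, 31.8, 42.1 and 30.8 CPM in PPZ, and 755, 708 and 1862 CPM in mock. The treated libraries were thus all far below the mock libraries, and mock 3 was the highest. Glyma.18G032500 was at least 976-fold lower (532-fold without mock 3, edgeR adjusted p = 0.002) and kept its call. Glyma.18G033100 was at least 539-fold lower (261-fold without mock 3) and was called only in the fits without mock 1 or mock 3. The most abundant of the group, Glyma.18G033200, had 2.43, 2.71 and 3.19 CPM in PPZ plus BL, against 421, 268 and 453 CPM in mock (log2 fold change -7.10 ± 0.30 SE, edgeR adjusted p = 8.99e-05). It kept its call.

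On chromosome 9 between 39591465 and 39721826, 12 neighbouring genes encode Kunitz inhibitors of trypsin-like proteases, of the kind known from soybean seeds and from defence against insects. These too were picked out from the largest decreases. Of the 12, 7 had no count in any PPZ plus BL library, and 11 passed the filter on low counts, in part through mock alone, so no count of lower members is given here either. Their summed level was 55.2, 52.0 and 59.3 CPM in PPZ plus BL, 49.2, 64.3 and 75.6 CPM in BL, 414, 442 and 342 CPM in PPZ, and 1917, 1335 and 2012 CPM in mock. Glyma.09G163800 had 3.72, 9.67 and 4.14 CPM in PPZ plus BL, against 1412, 772 and 820 CPM in mock (log2 fold change -7.40 ± 0.53 SE, edgeR adjusted p = 4e-04), and kept its call. Glyma.09G163000 was at least 381-fold lower (152-fold if mock 3 is left out) and was called only without mock 1 or mock 3. Glyma.09G163200 was at least 257-fold lower (159-fold without mock 3) and kept its call. Members of such groups are similar in sequence, and reads shared between copies may have been split or lost in the authors' counting, so the sums are firmer than single members. The remaining 2 of the largest decreases were Glyma.18G263200, an ABC transporter that was at least 548-fold lower, and Glyma.08G231600, a beta-lactamase superfamily gene that was at least 273-fold lower. Both kept their calls.

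Lists of cell division genes had positive median fold changes, but few members passed the thresholds with all 6 libraries. Of 36 tested genes of replication initiation, the MCM and related proteins that license DNA for copying, 6 were higher and 0 lower in PPZ plus BL, 34 had a positive fold change and the median was 1.70 on the log2 scale. Their summed level was 346, 470 and 539 CPM in PPZ plus BL, against 255, 134 and 126 CPM in mock. The groups did not overlap, and mock 1 was the nearest to PPZ plus BL. Of 123 kinesin motor genes, 5 were higher and 2 lower (median 0.86), of 90 histone and nucleosome assembly genes 11 were higher and 0 lower (median 0.52), and of 97 cyclin, E2F and CDK inhibitor genes 7 were higher and 0 lower (median 0.55). Of 86 tubulin and microtubule genes, 3 were higher and 0 lower (median 0.56). The called shares were 16.7% of the replication list, 12.2% of the histone group and 7.22% of the cyclin group. They were 5.69% of the kinesins and 3.49% of the tubulin group. Of all tested genes, 6.84% were called and 3.84% were higher. The medians lie above the 0.01 of all genes.

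The counts for cell division turned on mock 1. Without it, 24 of the replication genes, 47 of the kinesins, 20 of the histone group, 23 of the cyclin group and 24 of the tubulin group were higher, of 2714 genes in all. When one of the other libraries was left out, the lowest counts were 0, 0, 0, 2 and 0 in the same order of groups, without PPZ plus BL 2 for all but the tubulin group, which was at 0 without PPZ plus BL 1. Mock 1 itself had a tubulin sum of 5386 CPM, beside 3166 and 2569 CPM in the other mock libraries, and PPZ plus BL had 4725, 5582 and 5624 CPM. Glyma.02G030200, a cyclin, had 11.6, 11.2 and 14.8 CPM in PPZ plus BL, against 2.18, 1.31 and 1.69 CPM in mock (log2 fold change 2.85 ± 0.24 SE, edgeR adjusted p = 5.81e-04), and kept its call. The MCM gene Glyma.05G129700 had 14.2, 19.1 and 23.0 CPM in PPZ plus BL, against 6.29, 2.36 and 2.17 CPM in mock (log2 fold change 2.39 ± 0.42 SE, edgeR adjusted p = 0.00586). It was called in 1 of the 6 fits, the one without mock 1, as were the named kinesin Glyma.07G132100, the core histone Glyma.11G141800 and the MAP65 microtubule protein Glyma.13G189600. A kinesin moved the other way. Glyma.08G062600 had 0.93, 0.45 and 0.45 CPM in PPZ plus BL, against 4.52, 8.14 and 8.77 CPM in mock (log2 fold change -3.56 ± 0.40 SE, edgeR adjusted p = 0.00145), and lost its call only without PPZ plus BL 2. Of 480 ribosomal protein genes tested, 0 were higher and 1 was lower, with a median of 0.06, and the 1 lower gene, Glyma.19G071300 (ribosomal protein S21), kept its call.

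**Figure D3:**
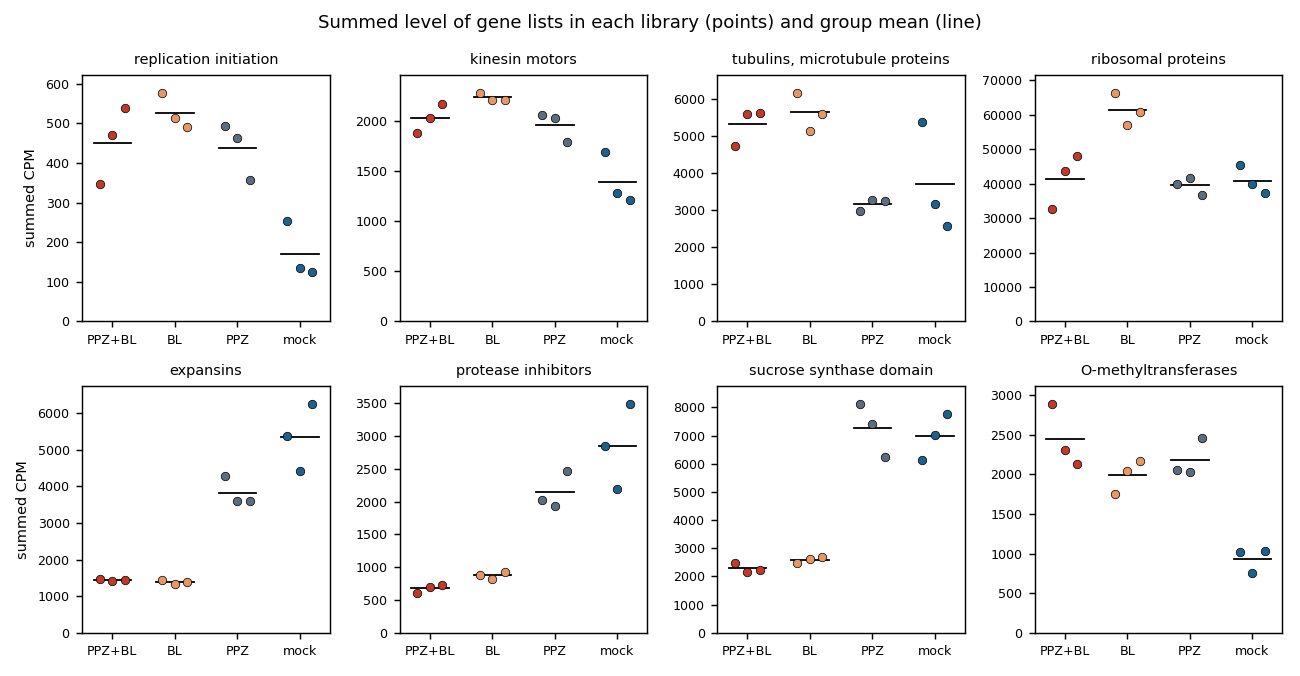
Each panel gives the summed CPM of all members of a gene list in each library (points) with the group mean (line), for PPZ plus BL, BL, PPZ and mock. Replication initiation and O-methyltransferase sums were higher in PPZ plus BL than in mock, expansin, protease inhibitor and sucrose synthase sums were lower, and in the tubulin panel mock 1 (5386 CPM) lies within the range of PPZ plus BL.

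Genes of the cell wall changed in both directions. Of 57 tested expansins, which loosen the wall without cutting it, 8 were higher and 12 lower in PPZ plus BL. That is 35.1% in all, beside 6.84% of all genes. Against BL 51 were tested, so some expansins passed the filter on low counts through mock. The share and the count of lower ones are thus descriptions. The sum over the family was 1483, 1420 and 1444 CPM in PPZ plus BL, against 5381, 4426 and 6245 CPM in mock, yet the median fold change of its tested members was positive, at 0.51. Much of the sum came from 1 gene. Glyma.17G147400 on chromosome 17 from 12108146 to 12110071 had 74.1, 73.7 and 70.1 CPM in PPZ plus BL, against 2861, 2328 and 3556 CPM in mock. No library of PPZ plus BL came near a mock library (log2 fold change -5.33 ± 0.28 SE, edgeR adjusted p = 1.61e-04), and the call was kept. The expansin Glyma.18G054000 went the other way, with 39.1, 48.1 and 46.8 CPM in PPZ plus BL and 15.6, 4.83 and 4.83 CPM in mock (log2 fold change 2.42 ± 0.45 SE, edgeR adjusted p = 0.00706), but was called in 1 of the 6 fits, without mock 1.

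Of 46 xyloglucan endotransglucosylases, enzymes that cut and rejoin xyloglucan chains, 2 were higher and 8 lower (21.7%, beside 6.84% of all genes, median -0.14). Glyma.17G065300 had 46.6, 26.8 and 25.5 CPM in PPZ plus BL, against 147, 246 and 118 CPM in mock (log2 fold change -2.37 ± 0.34 SE, edgeR adjusted p = 0.00313), and was called in 4 of the 6 fits. Leaving out 1 library moved the family's count of lower genes between 2 and 11. In the lists of structural and secondary wall genes, more members were called higher than lower with all 6 libraries. Of 149 tested genes of the Casparian strip, dirigent and laccase list, which takes in makers of the endodermal barrier and of lignin and lignans, 20 were higher and 3 lower, or 15.4% in all beside 6.84% of all genes. Leaving out 1 library moved the higher ones between 7 (without PPZ plus BL 2) and 44 (without mock 1). Of 46 extensin, Ole e 1 and fasciclin genes 6 were higher and 0 lower, of 158 pectin enzymes 18 were higher and 7 lower, of 87 PMR5 domain genes (wall polysaccharide acetylation) 12 were higher and 1 lower, and of 53 cellulose synthase and COBRA genes 6 were higher and 3 lower. The called shares were 13.04% of the extensin list, 15.8% of the pectin enzymes, 14.9% of the PMR5 list and 16.98% of the cellulose list. The PMR5 list was added after the values were seen, so its share is only a description. Without PPZ plus BL 2, the higher ones numbered 0 in the extensin list, 3 in the PMR5 list and 2 in the cellulose list, and without mock 2 they numbered 3 among the pectin enzymes. The summed levels of the pectin enzymes overlapped, at 4891, 4813 and 5031 CPM in PPZ plus BL and 5787, 4553 and 4890 CPM in mock, and so did those of the cellulose list, at 4799, 4402 and 4317 CPM in PPZ plus BL and 5184, 3962 and 3382 CPM in mock. The cellulose synthase Glyma.06G324300 had 316, 349 and 355 CPM in PPZ plus BL, against 68.4, 20.6 and 25.3 CPM in mock (log2 fold change 3.16 ± 0.45 SE, edgeR adjusted p = 0.00293). Mock 1 was the highest of the mock libraries there, and the gene was called only without mock 1 or mock 3. The pectate lyase superfamily gene Glyma.08G017300 had 183, 173 and 168 CPM in PPZ plus BL, against 50.7, 25.1 and 35.1 CPM in mock (log2 fold change 2.24 ± 0.25 SE, edgeR adjusted p = 0.00137), and kept its call. So did 2 genes that were lower. Glyma.19G033500, a COBRA-like gene, had 1.91, 1.76 and 2.15 CPM in PPZ plus BL, against 14.3, 21.3 and 28.3 CPM in mock (log2 fold change -3.46 ± 0.29 SE). Glyma.17G064800, of the DUF588 family that holds the Casparian strip membrane proteins, had 3.10, 4.30 and 5.24 CPM in PPZ plus BL, against 65.2, 58.2 and 53.7 CPM in mock (log2 fold change -3.80 ± 0.21 SE). Class III peroxidases, which act on lignin and other wall phenolics, were split at 12 higher and 12 lower of 131 tested (18.3%, beside 6.84% of all genes). Without PPZ plus BL 3 4 were higher, and without PPZ plus BL 2 3 were lower.

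Of the 5 called genes with the highest CPM that were lower in PPZ plus BL, 3 act in sucrose cleavage or as alcohol dehydrogenases. The group of fermentation genes was put together after these values had been seen. ADH2 (Glyma.04G240800, chromosome 4, 49728395 to 49731462), an alcohol dehydrogenase, the enzyme that makes ethanol in oxygen-poor tissue, had 412, 374 and 432 CPM in PPZ plus BL, against 2025, 3126 and 3935 CPM in mock (log2 fold change -2.90 ± 0.31 SE, edgeR adjusted p = 0.00124). A second zinc-binding alcohol dehydrogenase type gene, Glyma.06G122600, had 1280, 1163 and 1234 CPM in PPZ plus BL, against 3560, 5342 and 6282 CPM in mock (log2 fold change -2.05 ± 0.31 SE, edgeR adjusted p = 0.0035). The groups did not overlap for either gene. ADH2 lost its call only without PPZ plus BL 2, while Glyma.06G122600 was called in 2 of the 6 fits. Among 16 tested genes with the PF02776 domain of pyruvate decarboxylase and acetohydroxyacid synthase, 4 were lower and 0 higher. That is 25.0% beside 6.84% of all genes, and it is only a description, as the list was chosen afterwards. Glyma.13G231700 had 89.9, 162 and 226 CPM in PPZ plus BL, against 763, 968 and 1657 CPM in mock (log2 fold change -2.83 ± 0.44 SE, edgeR adjusted p = 0.00384), and was called in 2 of the 6 fits. Glyma.03G055100 had 1.40, 1.48 and 1.55 CPM in PPZ plus BL, against 114, 203 and 179 CPM in mock (log2 fold change -6.81, edgeR adjusted p = 9.05e-05).

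Among 14 tested genes with a sucrose synthase domain, 3 were lower and 1 was higher (28.6%, beside 6.84% of all genes). This list and that of the plant cysteine oxidases were also added after the values were seen, so their counts are descriptions. The family sum was 2467, 2162 and 2221 CPM in PPZ plus BL, 2479, 2626 and 2676 CPM in BL, 8116, 7397 and 6253 CPM in PPZ, and 6121, 7039 and 7783 CPM in mock. PPZ plus BL and BL libraries were thus low, and PPZ and mock libraries high. Glyma.09G073600 alone had 538, 411 and 429 CPM in PPZ plus BL, against 2218, 3228 and 3525 CPM in mock (log2 fold change -2.71 ± 0.28 SE, edgeR adjusted p = 0.00112), and lost its call only without PPZ plus BL 2. Glyma.15G182600 had 38.0, 40.5 and 59.9 CPM in PPZ plus BL, against 471, 491 and 622 CPM in mock (log2 fold change -3.52). The plant cysteine oxidases, which in Arabidopsis use oxygen to mark transcription factors of the low-oxygen response for breakdown, had a summed level of 81.7, 234 and 304 CPM in PPZ plus BL, 322, 239 and 181 CPM in BL, 2454, 1689 and 1036 CPM in PPZ, and 361, 433 and 581 CPM in mock. Of 19 tested, 2 were lower in PPZ plus BL than in mock (10.5%) and 18 had a negative fold change, with a median of -0.82. PPZ plus BL 1 was the lowest of its group and PPZ 1 the highest of its own, so that these genes varied within the groups as well.

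Core brassinosteroid genes showed no call. Of 12 genes that carry a brassinosteroid name in RefSeq, 0 were called in either direction, with log2 fold changes between -0.26 and 1.01. The receptor genes BRI1A (Glyma.06G147600) and BRI1B (Glyma.04G218300) had 47.4, 53.5 and 49.9 CPM and 53.0, 64.1 and 66.2 CPM in PPZ plus BL, against 65.1, 59.0 and 57.1 CPM and 68.0, 65.0 and 59.6 CPM in mock. The BIN2 gene Glyma.13G228100 had 53.3, 49.1 and 51.6 CPM in PPZ plus BL, against 50.9, 35.5 and 44.0 CPM in mock (log2 fold change 0.24 ± 0.15 SE). The groups overlapped for BRI1B and BIN2 and did not for BRI1A, whose log2 fold change was -0.26 ± 0.12 SE (edgeR adjusted p = 0.113). BES1-9 (Glyma.13G266600), with the highest CPM of the named BES1/BZR1 genes, had a log2 fold change of 0.06 ± 0.12 SE. CYP90A15 (Glyma.11G228900), a cytochrome P450 of brassinosteroid synthesis, had 3.26, 4.06 and 4.44 CPM in PPZ plus BL, against 2.79, 1.79 and 1.29 CPM in mock (log2 fold change 1.01 ± 0.32 SE, edgeR adjusted p = 0.0421), the furthest from 0 of the 12. None of 8 genes with the steroid 5-alpha reductase domain, the fold of the synthesis enzyme DET2, was called, although their sum was 211, 204 and 191 CPM in PPZ plus BL, against 117, 86.8 and 99.8 CPM in mock. EXORDIUM-like genes are growth genes that brassinosteroid raises in Arabidopsis. In the BZR and EXORDIUM list, 1 was higher and 5 lower of 29 tested (20.7%, beside 6.84% of all genes). The EXORDIUM-like gene Glyma.09G232700 had 34.0, 38.0 and 40.0 CPM in PPZ plus BL, against 11.1, 11.3 and 11.7 CPM in mock (log2 fold change 1.71 ± 0.12 SE, edgeR adjusted p = 4e-04), and kept its call. Its relative Glyma.04G100400 had 167, 97.7 and 104 CPM in PPZ plus BL, against 377, 581 and 467 CPM in mock (log2 fold change -1.95 ± 0.27 SE, edgeR adjusted p = 0.00264), and was called in 3 of the 6 fits.

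Among other hormones, the cytokinin and jasmonate lists had more higher than lower calls with all 6 libraries, but these counts went to 0 when 1 library was left out. Of 36 tested cytokinin oxidase, IPT and LOG genes, which make and break down cytokinins, 8 were higher and 0 lower (22.2%, beside 6.84% of all genes), and 0 were higher without PPZ plus BL 2. The LOG type gene Glyma.17G257200 had 18.6, 11.0 and 8.58 CPM in PPZ plus BL, against 1.42, 2.36 and 2.17 CPM in mock (log2 fold change 2.67 ± 0.34 SE, edgeR adjusted p = 0.00213), and was called in 4 of the 6 fits. Of 65 genes of jasmonate synthesis and TIFY repressors, 14 were higher and 2 lower (24.6%), and 0 were higher without mock 2. The lipoxygenase gene LOXB1 (Glyma.13G347700) had 2856, 2512 and 2641 CPM in PPZ plus BL, against 787, 253 and 466 CPM in mock (log2 fold change 2.41 ± 0.41 SE, edgeR adjusted p = 0.00528). Its groups were far apart, yet it was called in 1 of the 6 fits, without mock 1. Auxin genes were called in both directions. Of 120 Aux/IAA, ARF and GH3 genes 3 were higher and 3 lower, or 5.00%, which is below the share of all genes. Of 25 PIN and PILS auxin carriers 1 was higher and 3 lower (16.0%), and of 53 SAUR genes 2 were higher and 8 lower (18.9%). Only 1 carrier was lower without PPZ plus BL 1, and 1 SAUR gene without PPZ plus BL 2. Against BL 50 SAUR genes were tested, so some passed the filter on low counts through mock, and their count of lower ones is a description. The PIN and PILS family gene Glyma.15G208600 had 10.2, 10.9 and 13.4 CPM in PPZ plus BL, against 79.8, 177 and 198 CPM in mock (log2 fold change -3.72 ± 0.36 SE, edgeR adjusted p = 9.17e-04). The Aux/IAA gene Glyma.02G142600 had 11.5, 16.5 and 13.6 CPM in PPZ plus BL, against 54.5, 68.5 and 57.5 CPM in mock (log2 fold change -2.11 ± 0.18 SE, edgeR adjusted p = 5.79e-04). Both kept their calls. Of 140 protein phosphatases 2C, a family that holds the co-receptors of abscisic acid, 5 were higher and 3 lower (5.71%), and Glyma.06G050900 had 81.9, 62.0 and 47.5 CPM in PPZ plus BL, against 4.36, 1.84 and 5.11 CPM in mock (log2 fold change 4.06 ± 0.38 SE, edgeR adjusted p = 8.31e-04). It kept its call.

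Transcription factors were called in both directions. Of 214 tested AP2/ERF genes, which include ethylene response and low-oxygen response factors, 21 were higher and 35 lower, 26.2% in all beside 6.84% of all genes. Without mock 2 3 were higher, and without PPZ plus BL 2 12 were lower. Against BL 209 AP2/ERF genes were tested, so some passed the filter on low counts through mock, and their count of lower ones is a description. ERF5 (Glyma.09G041500) had 167, 179 and 143 CPM in PPZ plus BL, against 55.7, 33.7 and 35.1 CPM in mock (log2 fold change 1.98 ± 0.22 SE, edgeR adjusted p = 0.00138), and kept its call. Glyma.19G213100 had 9.97, 34.4 and 52.9 CPM in PPZ plus BL, against 399, 556 and 638 CPM in mock (log2 fold change -4.03 ± 0.58 SE, edgeR adjusted p = 0.00314), and was called in 4 of the 6 fits. Of 172 bHLH genes, 14 were higher and 4 lower (10.5%), and 3 were higher without PPZ plus BL 2. The bHLH gene Glyma.03G141700 had 28.2, 32.4 and 23.0 CPM in PPZ plus BL, against 166, 276 and 350 CPM in mock (log2 fold change -3.25 ± 0.30 SE, edgeR adjusted p = 8.3e-04), and kept its call. Of 92 GRAS genes 0 were higher and 4 lower (4.35%). Among them Glyma.06G265500 had 3.57, 3.81 and 5.14 CPM in PPZ plus BL, against 52.4, 43.3 and 70.5 CPM in mock (log2 fold change -3.73 ± 0.25 SE), and kept its call. WRKY genes (7 higher and 2 lower of 140) and NAC genes (6 higher and 6 lower of 131) were called at 6.43% and 9.16%, near the share of all genes. Of 91 heat shock factors and small heat shock proteins 2 were higher and 13 lower (16.5%). Without PPZ plus BL 2, 1 was lower, and without mock 1, 18 were. Against BL 82 were tested, so some passed the filter on low counts through mock, and the count of lower ones is a description.

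Among defence proteins, the Bet v I and the chitinase lists had more higher than lower calls, and protease inhibitors and NB-ARC receptors more lower than higher ones. Of 29 tested genes of the Bet v I family, small pathogenesis-related proteins, 10 were higher and 2 lower (41.4%, beside 6.84% of all genes), with a median of 1.37, and 2 were higher without mock 2. Glyma.17G030100 had 1133, 698 and 533 CPM in PPZ plus BL, against 250, 147 and 233 CPM in mock (log2 fold change 1.91 ± 0.33 SE, edgeR adjusted p = 0.00591), and was called only without mock 1. In the other direction, Glyma.15G145600 had 0.26, 0.16 and 0.80 CPM in PPZ plus BL, against 93.1, 109 and 220 CPM in mock (log2 fold change -8.46 ± 0.61 SE, edgeR adjusted p = 4.06e-04), and kept its call. Of 120 chitinase, thaumatin, glucanase and CAP genes 13 were higher and 2 lower (12.5%), and 6 were higher without PPZ plus BL 2. Of 304 NB-ARC receptors, the intracellular immune receptors, 3 were higher and 13 lower (5.26%, median -0.32), and 1 was lower without PPZ plus BL 2. Of 82 malectin-like receptor kinases 1 was higher and 2 were lower (3.66%). Their direction was not stable, with 10 higher and 2 lower by DESeq2, and 7 higher and 4 lower without mock 1. With all 6 libraries, the NB-ARC and malectin-like lists were thus called below the share of all genes. Of 27 tested protease inhibitors, which include the chromosome 9 group above, 1 was higher and 14 lower, with a median of -2.53, and 8 were lower without PPZ plus BL 2. Since the list holds genes that passed the filter through mock alone, this count and median are descriptions. The 1 that was higher, Glyma.12G234800, had 10.1, 9.80 and 6.83 CPM in PPZ plus BL, against 0.36, 0.42 and 0.32 CPM in mock (log2 fold change 4.60 ± 0.28 SE, edgeR adjusted p = 2.26e-04).

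Of 29 O-methyltransferases, which methylate phenolic compounds, 9 were higher and 1 lower (34.5% beside 6.84% of all genes, median 1.49), and 2 were higher without mock 2. Their sum was 2884, 2304 and 2132 CPM in PPZ plus BL, against 1014, 749 and 1037 CPM in mock. Glyma.20G213700 made up a large part of it, with 1235, 1047 and 938 CPM in PPZ plus BL, against 464, 203 and 241 CPM in mock (log2 fold change 1.83 ± 0.33 SE, edgeR adjusted p = 0.00661), and was called only without mock 1. Of 76 BAHD acyltransferases 20 were higher and 3 lower (30.3%), of 133 UDP-glycosyltransferases 25 were higher and 6 lower (23.3%), and of 202 cytochrome P450 genes 29 were higher and 13 lower (20.8%). Without PPZ plus BL 2, the higher ones numbered 4, 6 and 13 in the same order, of 313 higher genes in all. The BAHD list was added after the values were seen, so its share is only a description. The glycosyltransferase SGT2 (Glyma.11G053400) had 129, 181 and 207 CPM in PPZ plus BL, against 27.9, 10.2 and 12.3 CPM in mock (log2 fold change 3.36 ± 0.41 SE, edgeR adjusted p = 0.00176), and lost its call only without PPZ plus BL 2. CYP72A67 (Glyma.08G238100), a cytochrome P450, had 197, 233 and 238 CPM in PPZ plus BL, against 55.7, 25.2 and 33.4 CPM in mock (log2 fold change 2.55 ± 0.29 SE, edgeR adjusted p = 0.00149), and kept its call. Of 54 glutathione S-transferases 2 were higher and 4 lower (11.1%, median -0.11), and 0 were lower without PPZ plus BL 1.

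**Figure D4:**
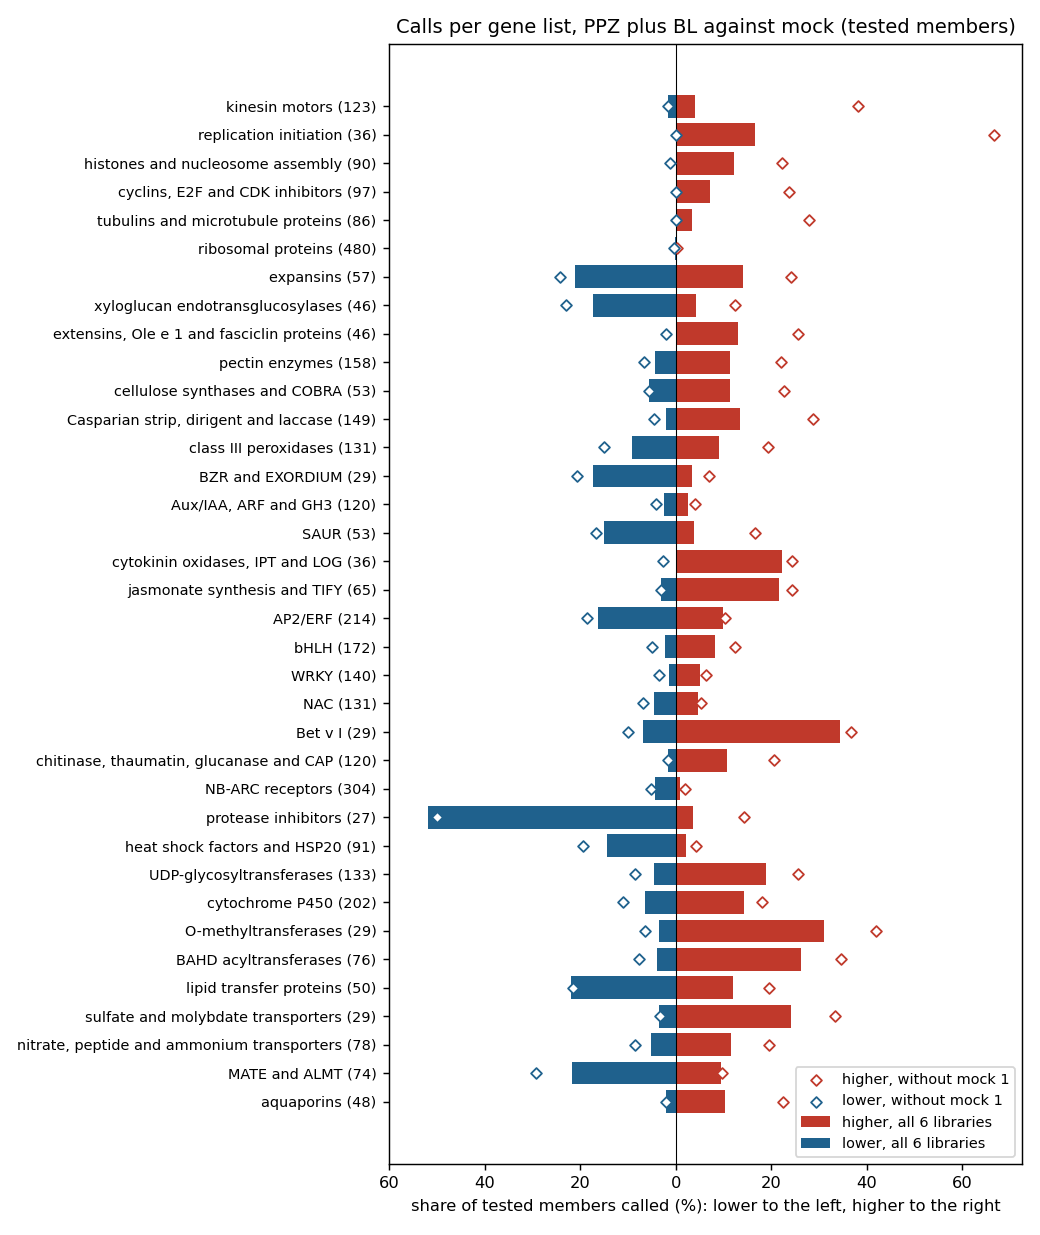
Bars give the share of tested members of 36 gene lists that were called higher (right) or lower (left) in PPZ plus BL than in mock with all 6 libraries, and diamonds give the same without mock 1. The number of members tested stands in brackets. Replication initiation, kinesin and tubulin genes show the widest gap between bar and diamond, and protease inhibitors (14 of 27 lower) the longest bar to the left.

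Transporters of mineral nutrients were the interest of the study. Of 29 tested sulfate and molybdate transporters, 7 were higher and 1 lower in PPZ plus BL (27.6%, beside 6.84% of all genes), and 4 were higher without PPZ plus BL 2. The sulfate permease Glyma.03G156700 on chromosome 3 from 38365606 to 38374448 had 359, 356 and 401 CPM in PPZ plus BL, against 30.0, 10.9 and 14.9 CPM in mock (log2 fold change 4.33 ± 0.38 SE, edgeR adjusted p = 7.24e-04), and kept its call. Of 78 nitrate, peptide and ammonium transporters 9 were higher and 4 lower (16.7%), and 3 were higher without PPZ plus BL 2. The ammonium transporter AMT1.2 (Glyma.10G132300) had 25.0, 28.9 and 28.7 CPM in PPZ plus BL, against 113, 102 and 144 CPM in mock (log2 fold change -2.12 ± 0.17 SE, edgeR adjusted p = 5.68e-04), and kept its call. Of 74 MATE and ALMT genes, exporters of organic acids and other metabolites, 7 were higher and 16 lower (31.1%). Without PPZ plus BL 2, 1 was higher and 6 were lower. Against BL 68 were tested, so some passed the filter on low counts through mock. The share and the count of lower ones are thus descriptions. The largest levels among the higher ones belonged to Glyma.13G203000, a MATE gene with 215, 203 and 163 CPM in PPZ plus BL, against 0.20, 0.53 and 1.05 CPM in mock (log2 fold change 8.28 ± 0.44 SE, edgeR adjusted p = 1.64e-04), and it kept its call. Of 106 SWEET sugar and AAAP amino acid transporters 10 were higher and 8 lower (16.98%), or 1 higher and 4 lower without PPZ plus BL 2, and Glyma.10G109500 (AAAP) had 22.4, 26.7 and 21.2 CPM in PPZ plus BL, against 155, 142 and 160 CPM in mock (log2 fold change -2.70 ± 0.15 SE). Of 48 aquaporins 5 were higher and 1 lower (12.5%), and 0 were higher without PPZ plus BL 1. The aquaporin SIP1-3 (Glyma.19G108400) was the 1 lower gene (log2 fold change -1.85 ± 0.17 SE), and it kept its call.

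For the 6 potassium, iron, zinc and molybdate transporter genes that the study followed up by identifier, each fitted fold change was negative, and 2 were called. The potassium transporter gene Glyma.08G086300 had 8.78, 7.09 and 6.29 CPM in PPZ plus BL, against 19.8, 18.3 and 23.9 CPM in mock (log2 fold change -1.49 ± 0.18 SE, edgeR adjusted p = 0.00177), which missed the 3-fold limit. The potassium transporter gene Glyma.13G170700 had a log2 fold change of -0.72 ± 0.22 SE (edgeR adjusted p = 0.0382), and its groups did not overlap at 7.39, 6.60 and 5.19 CPM in PPZ plus BL, against 8.22, 12.4 and 10.9 CPM in mock. The VIT family gene Glyma.08G181900 had 2.02, 1.76 and 2.05 CPM in PPZ plus BL, against 7.41, 15.0 and 15.1 CPM in mock (log2 fold change -2.69 ± 0.31 SE, edgeR adjusted p = 0.0016). It was called, and lost its call only without PPZ plus BL 2. The ZIP gene Glyma.13G338300 was called at -1.92 ± 0.29 (SE, edgeR adjusted p = 0.00345), with 80.8, 53.9 and 45.4 CPM in PPZ plus BL and 157, 257 and 264 CPM in mock, and kept the call in 2 of the 6 fits. The ZIP gene Glyma.08G328000 (-1.60 ± 0.35 SE, edgeR adjusted p = 0.0127) and the molybdate transporter gene Glyma.17G203200 (-1.40 ± 0.33 SE, edgeR adjusted p = 0.0172) did not pass. Of the 12 genes with a RefSeq name of the PHT1 phosphate transporters, 6 could be tested. PHT1-3 (Glyma.10G006700) had 221, 127 and 89.98 CPM in PPZ plus BL, against 536, 400 and 527 CPM in mock (log2 fold change -1.74 ± 0.33 SE, edgeR adjusted p = 0.00763). PHT1-14 (Glyma.02G005800) had 41.3, 20.6 and 13.7 CPM in PPZ plus BL, against 80.8, 105 and 108 CPM in mock (log2 fold change -1.97 ± 0.38 SE, edgeR adjusted p = 0.00795). Each was called in 2 of the 6 fits. PHT1-2 (Glyma.03G162800) had 99.7, 69.5 and 57.5 CPM in PPZ plus BL, against 39.8, 20.9 and 31.7 CPM in mock and did not pass (log2 fold change 1.29 ± 0.28 SE, edgeR adjusted p = 0.0121). The study reports that BL and PPZ each repressed a PHT1 gene of the same number. Its text gives no identifier for that gene, so whether it is Glyma.03G162800 was not settled. None of the 22 SPX and PHO1 genes and none of the 28 KUP/HAK potassium transporter genes was called.

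**Figure D5:**
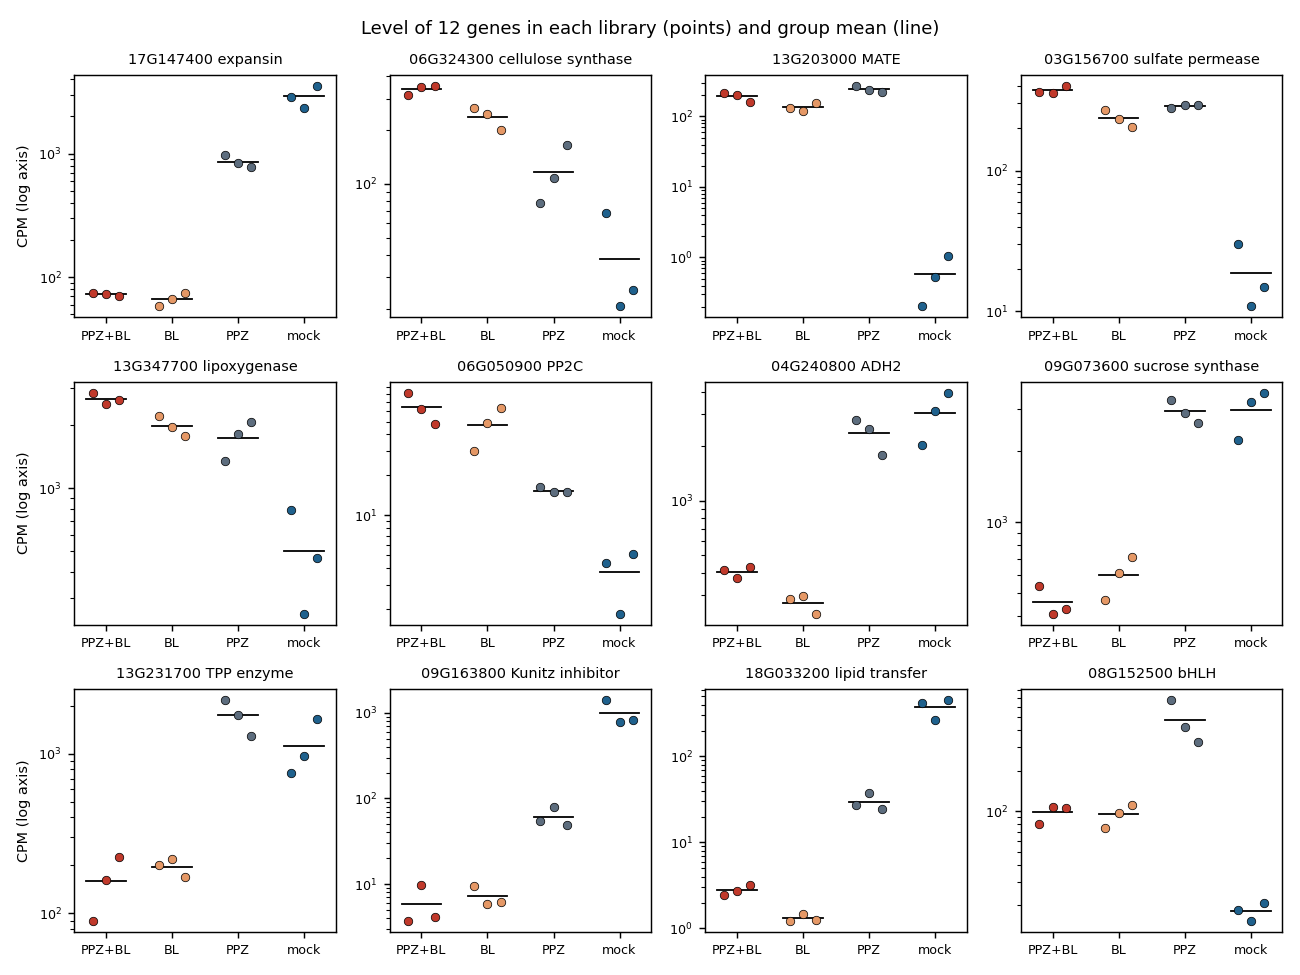
Each panel gives the CPM of 1 gene in each library (points) and the group mean (line) on a log axis, for PPZ plus BL, BL, PPZ and mock. The expansin Glyma.17G147400 is near 70 CPM in PPZ plus BL and BL and between 2328 and 3556 CPM in mock, the MATE gene Glyma.13G203000 is low in mock alone, and the bHLH gene Glyma.08G152500 is highest in PPZ.

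PPZ plus BL was also set against PPZ alone. These groups differ in BL and also in the time in PPZ, 2 days in PPZ plus BL and 2.5 days in PPZ, and the parts of the 2 differences cannot be told apart. The PPZ plus BL libraries are the same ones as above, so the comparisons are not independent. Of 35792 genes tested, 770 were higher in PPZ plus BL than in PPZ (2.15%) and 1996 were lower (5.58%), or 7.73% in either direction. Without 1 library, the calls numbered between 2057 (without PPZ plus BL 2) and 2790 (without PPZ 3). With library size alone in place of TMM, 39.2% of the calls were higher, beside 27.8% with TMM, and the median over all genes was a log2 fold change of 0.19 in place of 0.01. Lists with more lower than higher calls included the plant cysteine oxidases (0 higher and 10 lower of 19 tested, median -2.76), protease inhibitors (0 and 13 of 22), glutathione S-transferases (1 and 19 of 57), WRKY genes (1 and 33 of 154), NAC genes (2 and 21 of 133), cytochrome P450 genes (10 and 42 of 212, median -0.07) and jasmonate genes (1 and 16 of 68). The protease inhibitor and plant cysteine oxidase lists hold genes that passed the filter on low counts through PPZ alone, so their counts and medians are descriptions. More WRKY genes were tested here than against mock (154 and 140), as were cytochrome P450 genes (212 and 202) and glutathione S-transferases (57 and 54). Some of those thus passed through PPZ, and the counts of all these lists are descriptions. Among the protease inhibitors, Glyma.09G163300 had 0.10, 0.08 and 0 CPM in PPZ plus BL. Aquaporins (9 higher and 2 lower of 50) and photosynthesis genes (17 higher and 0 lower of 30) had more higher than lower calls. The 3 largest decreases were 2 plant cysteine oxidase genes and an aminotransferase gene, none with a count in PPZ plus BL. Glyma.14G176800 had 28.9, 19.6 and 12.9 CPM in PPZ and Glyma.02G208600 had 29.3, 14.5 and 10.3 CPM in PPZ, both among the plant cysteine oxidases. Glyma.08G156300, the aminotransferase, had 20.1, 15.5 and 10.4 CPM in PPZ. The 3 largest increases, Glyma.13G171400, Glyma.08G300500 and Glyma.14G053900, have no Pfam entry and stood below 4 CPM in every PPZ plus BL library.

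Some genes stood higher in PPZ than in both PPZ plus BL and mock. The bHLH gene Glyma.08G152500 had 81.2, 107 and 107 CPM in PPZ plus BL, 673, 426 and 327 CPM in PPZ and 18.6, 15.3 and 20.9 CPM in mock. It was thus lower in PPZ plus BL than in PPZ (log2 fold change -2.29) and higher than in mock (log2 fold change 2.43 ± 0.18 SE, edgeR adjusted p = 4.59e-04). WRKY57 (Glyma.18G213200) had 15.2, 15.7 and 30.7 CPM in PPZ plus BL, 85.4, 88.5 and 104.7 CPM in PPZ, and 1.32, 2.42 and 2.42 CPM in mock, and was called in both comparisons as well. The pyruvate decarboxylase type gene Glyma.07G153100, chosen after its values were seen, had 34.7, 68.4 and 94.4 CPM in PPZ plus BL, 1651, 1316 and 818 CPM in PPZ, and 363, 485 and 704 CPM in mock. It was lower in PPZ plus BL than in either.

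Few single genes passed the test between PPZ plus BL and BL alone. Of 35417 genes tested, 2 were called (0.00565%), 1 higher and 1 lower (0.00282% each), while 7734 had an unadjusted edgeR p under 0.05 and DESeq2 called 186. Leaving out 1 library gave between 0 and 74 calls, the highest without BL 1. The 295 genes with a fitted change of at least 3-fold compare with 3763 against mock, and the median standard error was 0.17 on the log2 scale against BL and 0.22 against mock. The 2 genes are named because their calls were the only ones. Glyma.19G033900, a cytochrome P450, had 21.7, 26.5 and 23.1 CPM in PPZ plus BL, against 5.37, 4.89 and 5.64 CPM in BL (log2 fold change 2.16 ± 0.13 SE, edgeR adjusted p = 0.0029). PPZ alone had 19.8, 18.7 and 15.8 CPM. Glyma.13G364700, a polygalacturonase of glycosyl hydrolase family 28, had 2.74, 2.66 and 3.54 CPM in PPZ plus BL, against 21.5, 18.3 and 17.4 CPM in BL (log2 fold change -2.69 ± 0.16 SE, edgeR adjusted p = 0.0029). None of 480 ribosomal protein genes was called against BL, and no test of the group was made. Their sum was 32660, 43550 and 48120 CPM in PPZ plus BL, against 66340, 57070 and 60790 CPM in BL, and the tested members had a median log2 fold change of -0.55, beside 0.02 for all genes. Histone and nucleosome assembly genes, with 0 of 90 called, had a median of -0.62 in the same comparison.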

How the data were processed

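RNA-seq counts of the 12 root tip libraries were analysed, 3 in each group. The authors aligned paired-end reads with HISAT2 2.0.5 and counted reads per gene with featureCounts 1.5.0-p3, and the deposited counts carry no normalization. The setting for strand is not given in the sources used here, so overlapping and antisense genes may share reads. The authors also deposited FPKM values, which were read but support no value in the text, and the log2 fold changes and p-values of 5 comparisons made with DESeq2, which were not used. Gene identifiers are of Wm82.a4.v1, and positions are those of the deposited table. RefSeq symbols came from Glycine_max_v4.0 for 33780 of 47068 protein-coding RefSeq genes, matched by position with an overlap of at least 0.8 of the longer gene. RefSeq gave symbols but no product names or sequences here, so a planned list of brassinosteroid genes by product name was replaced by one by symbol, chosen after the files were read, and no sequence is shown.

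Counts of 53852 rows, 980 of them loci outside the annotation, were fitted in R 4.3.3 with edgeR 4.0.16 (filterByExpr, TMM, glmQLFit and glmQLFTest) on the 6 libraries of each comparison, and counts of calls cover the 52872 annotated genes. A called gene had a p, adjusted by the Benjamini-Hochberg method, of at most 0.01 and a change of 3-fold or more, the limits in the methods of the study. A standard error is the size of the log2 fold change over the square root of F. CPM values are TMM-scaled over all 12 libraries and do not correct for gene length. A fold against libraries with 0 counts was computed against 3 counts per library, and intervals (95%) and floors cover counting error only. The study's methods speak of biological replicates, but no label ties a library to a culture, so p-values measure the spread between these libraries.

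Gene lists were drawn by Pfam entry. The lists and the groups were chosen with earlier results of these data known. The lists of plant cysteine oxidases, sucrose synthases, pyruvate decarboxylase type enzymes, PMR5 domain proteins and BAHD acyltransferases were added after the values were seen. Named genes were the 6 largest increases and decreases against mock whose groups did not overlap, with 10 counts or more in each library of the higher one, the 5 called genes with the highest mean CPM in each direction, the called gene with the highest mean CPM in each list and direction, 6 transporters the study names by identifier, called brassinosteroid genes, and the 3 largest increases and decreases against PPZ. Further members of the small lists are named to describe them.

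Alternatives were leaving out each library in turn, fitting all 12 libraries together, DESeq2 1.42.0, scaling by median ratios or by library size alone, dropping the filter or asking for a mean of at least 50 counts, a block for the replicate number, dropping the fold threshold, and testing against 3-fold itself. Tested on simulated counts for PPZ plus BL against mock, where 200 of 35658 genes had a log2 change of 2, the fit recovered 146 (73%) with 1 false call. Each simulated gene was drawn on its own, with no deviation shared by a whole library. The simulation therefore cannot speak to a deviation such as that of mock 1. Python 3.11.15 with NumPy 2.4.6, pandas 2.3.3 and Matplotlib 3.10.9 served for tables and figures.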

Additional observations from a re-analysis of the deposited data

Results flagged for a closer look

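Loci outside the annotation did not enter the counts of the report. Of 625 such loci tested, 15 were called higher and 61 were called lower in PPZ plus BL than in mock (edgeR, same limits). They have no gene name or Pfam entry here, and they stand out because they are signal in data that the comparisons did not use.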

How the results depend on the processing

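Calls against mock (2428, with 1364 higher and 1064 lower) numbered 745 (312 higher and 433 lower) with the replicate number as a block, 249 (73 higher and 176 lower) in the test against a fold change of 3, and 5040 (2468 higher and 2572 lower) with no fold threshold. Higher genes numbered 2109 with DESeq2, 2172 with all 12 libraries and 864 with a mean of at least 50 counts. Leaving out each library in turn gave 649 to 4304 calls, 313 to 2714 higher and 336 to 1590 lower. Against PPZ (2766 calls), the test against a fold change of 3 gave 695 and no fold threshold gave 6972, and leaving out each library gave 2057 to 2790. Against BL (2 calls), DESeq2 gave 186, all 12 libraries 11, no filter 21, the replicate block 0, the test against a fold change of 3 gave 0, and leaving out each library 0 to 74. In the remaining alternatives these counts stayed within 1.5 times. The cause of these moves was not tested, though fits without a library have fewer samples.

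Among named genes with no call, leaving out each library in turn gave log2 fold changes of -0.13 to 0.010 for BRI1B (Glyma.04G218300), -0.072 to 0.16 for BES1-11 (Glyma.13G266500), -0.24 to 0.18 for BES1-12 (Glyma.12G231500) and -0.63 to 0.018 for Glyma.13G171400, and BES1-12 was at 0.0036 with library size alone. Among the 135 named genes that were tested, none that was called turned direction, and the other called genes were not followed. Same-numbered libraries of PPZ plus BL and mock did not deviate together (correlations of -0.16, -0.03 and -0.14 over 36133 genes), so the numbers were not taken to pair them, and the block ended the calls of 60 of these genes. With 3 libraries a group and medians of the standard error near 0.2 on the log2 scale, changes close to 3-fold could be missed.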
